A study of Mus musculus with 121 samples.

Results

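Adenosine signalling was followed through 7 genes of the mouse count table: the receptor genes Adora1, Adora2a and Adora2b, and the genes Nt5e, Adk, Slc29a1 and Slc29a2, which make, remove or move adenosine. A gene was taken when its symbol in the table equalled one of these names, and 7 of the 24412 genes in the table did. Adenosine forms outside cells from released nucleotides and acts on G protein-coupled receptors. Adora1 couples to inhibitory G proteins and damps transmitter release at many synapses, whereas Adora2a and Adora2b couple to stimulatory G proteins that raise cyclic AMP. Adora2a is best known from striatal neurons of the indirect pathway, where it opposes the dopamine receptor Drd2.

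The libraries came from male mice with a conditional Gdnf allele, named cKU in the labels, that raises expression of Gdnf from its own locus once Cre has acted. The study asks how more endogenous GDNF alters the nigrostriatal system and the cortex. RNA was sequenced from prefrontal cortex (PFC), striatum (STR) and substantia nigra (SN), each library from 1 region of 1 mouse. All mice had a mixed 129Ola/ICR/C57bl6 background. The genotypes were wt/wt (WT), wt/cKU (HET) and cKU/cKU (HOM). In the Nestin-Cre model the allele was crossed to a line that drives Cre in the nervous system from mid-gestation, in every genotype by the labels, and untreated mice were taken at 2 months. In the AAV-Cre model a virus carrying Cre was injected into the striatum on both sides at 3 to 5 months, in WT mice too, and tissue was taken at 5 to 7 months. Age, injection and the source of Cre differ together between the models and cannot be told apart.

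The Nestin-Cre groups held 8 WT, 6 HET and 4 HOM libraries in PFC, and 6 WT, 7 HET and 6 HOM libraries in STR and again in SN. The AAV-Cre groups held 7 WT, 7 HET and 8 HOM libraries in PFC and in SN, and 7 of each genotype in STR. The labels of mouse M4575 conflict, WT for PFC but HOM for STR and SN, and were used as given for each library. Total counts (in units of 1e6) ran from 9.87 to 26.8 per library with a median of 17.9. Levels are given as cpm, counts per 1e6 counts of a library, with the SD over libraries.

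Markers of each region were present where its name places them. Slc6a3, the dopamine transporter gene, averaged 1227 cpm in WT SN of Nestin-Cre mice and 1285 cpm in WT SN of AAV-Cre mice, and Ppp1r1b averaged 2717 and 2097 cpm in their WT STR. Slc17a7, a transporter gene of cortical excitatory neurons, averaged 1618 and 1467 cpm in their WT PFC. A list of 12 striatal marker genes, which does not hold Adora2a, summed to 11997 ± 1196 cpm in WT STR of Nestin-Cre mice (n = 6), to 1138 ± 187 cpm in WT PFC (n = 8) and to 414 ± 21.2 cpm in WT SN (n = 6). In WT AAV-Cre mice the sums were 11101 ± 943 cpm in STR, 1810 ± 519 cpm in PFC and 690 ± 329 cpm in SN (n = 7 each). None of the 12 striatal genes was at 0 in any group. RNA from whole tissue cannot tell fewer cells of a type from less RNA per cell.

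Each region had its own order of adenosine genes. Scaled to exon length, WT STR of Nestin-Cre mice held most Adora2a, at 186 ± 24.2 cpm per kb (n = 6), ahead of Adora1 at 32.7 ± 2.98 cpm per kb. In WT PFC of the same model Adora1 led at 47.9 ± 2.98 cpm per kb (n = 8), and Adora2a reached 6.00 ± 2.14 cpm per kb. Adk led in WT SN at 66.9 ± 9.65 cpm per kb (n = 6), where Adora2a was the lowest of the genes at 0.534 ± 0.229 cpm per kb. Adora2b was low in every region, with 2.18 ± 0.392 cpm per kb in PFC, 2.27 ± 0.468 in STR and 5.25 ± 1.26 in SN of these WT mice. On the same scale Slc29a1 exceeded Slc29a2 in each region, at 9.19 against 6.27 cpm per kb in PFC, 18.1 against 5.66 in STR and 16.1 against 7.08 in SN. Nt5e was at 1.68 cpm per kb in PFC, 9.83 in STR and 2.41 in SN. In WT PFC the values of Adora2a and Slc29a2 differed by less than their spread.

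**Figure D1:**
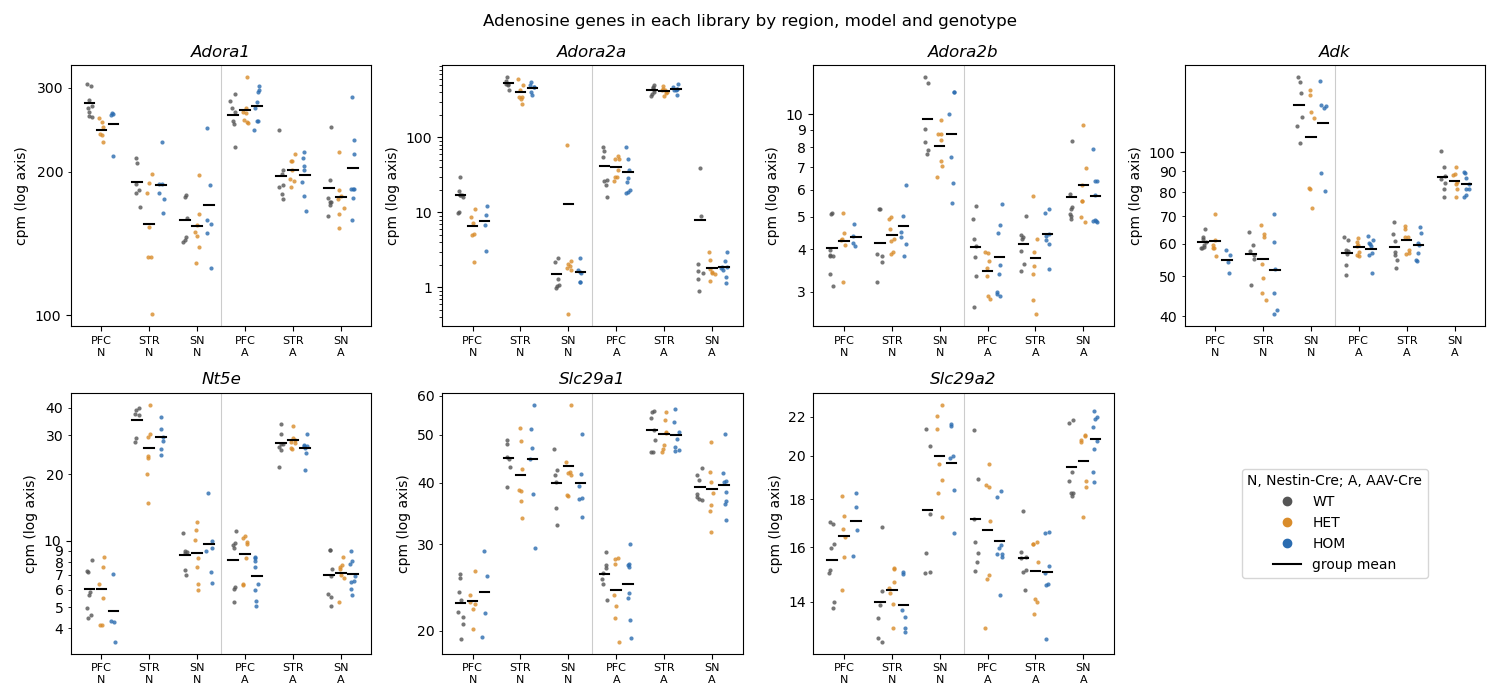
Level of each adenosine gene in cpm (log axis) in all libraries, by region and model (N, Nestin-Cre; A, AAV-Cre) and coloured by genotype. Points are libraries and bars are group means. Adora2a in STR lies between 280 and 636 cpm, above every PFC and SN library, and single SN libraries stand out at 79.6 and 39.3 cpm.

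Differences between regions were tested in WT libraries with the edgeR quasi-likelihood F test, with Benjamini-Hochberg adjustment over all genes and a call at an adjusted p under 0.1. All 7 genes passed the filter of 1 cpm in at least 3 libraries in every fit. Most genes differ between regions, so the counts are read beside the share of all genes called. In Nestin-Cre mice 4 of the 7 were called between STR and PFC (68.1% of all genes), 6 between SN and STR (76.2%) and 6 between SN and PFC (78.8%). In AAV-Cre mice the counts were 5 between STR and PFC (65.6%), 6 between SN and STR (75.6%) and 6 between SN and PFC (74.1%). The shares lie close to those of all genes, and the sizes of the differences, not the counts, set the adenosine genes apart from one another. Regions came from the same mice. With mouse as a replicate block the calls in Nestin-Cre mice were 5, 6 and 6, and those in AAV-Cre mice 5, 6 and 5.

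Adora2a (Entrez 11540; mm10 chromosome 10, 75316877 to 75334792, plus strand) spanned the widest range. In WT Nestin-Cre mice the lowest, median and highest libraries were at 435, 512 and 636 cpm in STR, at 9.79, 17.1 and 29.3 cpm in PFC and at 0.996, 1.19 and 2.47 cpm in SN. The regions did not overlap. The log2 difference was 4.91 between STR and PFC (SE 0.20, adjusted p = 8.5e-15), -8.61 between SN and STR (SE 0.28, adjusted p = 1.2e-16) and -3.70 between SN and PFC (SE 0.26, adjusted p = 2.4e-11) by edgeR. In WT AAV-Cre mice the lowest, median and highest libraries were at 361, 432 and 499 cpm in STR, at 16.1, 27.3 and 75.0 cpm in PFC and at 0.908, 1.66 and 39.3 cpm in SN. STR again stood clear of both other regions, while PFC and SN overlapped through 1 SN library, that of mouse M3587. The SN minus PFC difference was -2.43 (edgeR adjusted p = 8.9e-04) with it and -4.01 without it. Across the 18 groups of model, region and genotype, the 6 STR groups ranked highest, and neighbours in that order overlapped except at the step from STR to the rest.

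Adora1 (Entrez 11539; chromosome 1, 134199215 to 134235457, minus strand) was highest in PFC. WT means in Nestin-Cre mice were 279 ± 17.3 cpm in PFC (n = 8), 190 ± 17.3 cpm in STR (n = 6) and 158 ± 16.5 cpm in SN (n = 6). Adora1 fell by 0.58 on the log2 scale from PFC to STR in these mice and by 1.01 from PFC to SN. The same differences in AAV-Cre WT mice were -0.47 and -0.61. All of these were called by edgeR, with adjusted p of at most 8.4e-05. Between SN and STR the difference was called in Nestin-Cre mice (-0.43, adjusted p = 5.7e-05) but not in AAV-Cre mice (-0.14, edgeR adjusted p = 0.174). Adora1 shares 662 exon bases with Mybph on the opposite strand, which reached at most 1.57 cpm in any library. Every group overlapped its neighbour in the order of Adora1 means, in which the 6 PFC groups ranked highest.

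Adora2b (Entrez 11541; chromosome 11, 62248984 to 62266452, plus strand) was highest in SN. WT Nestin-Cre means were 4.03 ± 0.723 cpm in PFC, 4.19 ± 0.862 cpm in STR and 9.68 ± 2.33 cpm in SN, and every SN library lay above every library of the other regions. SN exceeded STR by 1.05 on the log2 scale in Nestin-Cre mice (edgeR adjusted p = 9.7e-06) and by 0.40 in AAV-Cre mice (edgeR adjusted p = 0.0121), where the groups overlapped. The 6 SN groups ranked highest, and every neighbour in the order of means overlapped. Its counts ran from 30 to 212 per library.

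Nt5e, the ecto-nucleotidase that forms adenosine from AMP at the cell surface, was a striatal gene in both models. Nt5e (Entrez 23959; chromosome 9, 88327609 to 88372089, plus strand) had WT Nestin-Cre levels of 28.1, 37.3 and 39.9 cpm in STR (lowest, median and highest) against 4.48, 5.75 and 8.19 cpm in PFC and 6.96, 8.81 and 10.8 cpm in SN. STR stood clear of PFC and SN, which overlapped. STR exceeded PFC by 2.51 on the log2 scale in Nestin-Cre mice (SE 0.13, adjusted p = 6.4e-13) and by 1.70 in AAV-Cre mice (SE 0.15, edgeR adjusted p = 2.4e-09). SN minus STR was -2.19 and -2.03 in the same order, both called. The smaller SN minus PFC difference had opposite signs, 0.32 in Nestin-Cre mice (adjusted p = 0.0435) and -0.33 in AAV-Cre mice (edgeR adjusted p = 0.0716), and the AAV-Cre call was lost with mouse as a replicate block.

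Adk, the kinase that returns adenosine to AMP inside cells and in adult brain is found chiefly in astrocytes, was highest in SN. Adk (Entrez 11534; chromosome 14, 21052574 to 21448569, plus strand) was at 60.6 ± 2.35 cpm in WT PFC, 56.6 ± 5.43 cpm in STR and 131 ± 18.8 cpm in SN of Nestin-Cre mice. SN libraries lay above all others. STR minus PFC was -0.13 in Nestin-Cre mice (edgeR adjusted p = 0.152), and it was called with mouse as a replicate block (-0.18, adjusted p = 0.0393). SN minus STR was 1.05 in Nestin-Cre mice (edgeR adjusted p = 2.2e-10) and 0.52 in AAV-Cre mice (edgeR adjusted p = 7.6e-08). The list of 10 astrocyte markers had a median log2 difference of 0.80 and 0.71 in the same comparisons, with 8 and 7 genes called higher in SN and 2 called lower in each, against medians of 0.01 and 0.03 over all genes (37.8% and 39.7% called higher). The 10 oligodendrocyte markers had medians of 1.49 and 0.71, with 10 and 9 called higher. The part of either cell type in the level of Adk was not tested. Across the 18 groups, the 6 SN groups of Adk ranked highest and the step from SN to the rest was free of overlap.

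Slc29a1 and Slc29a2 encode the equilibrative nucleoside transporters, which carry adenosine in both directions across the plasma membrane. Slc29a1 (Entrez 63959; chromosome 17, 45585200 to 45599603, minus strand) was lowest in PFC. WT Nestin-Cre means were 22.7 ± 2.41 cpm in PFC, 44.8 ± 3.47 cpm in STR and 39.9 ± 5.01 cpm in SN, with no overlap between PFC and either other region. STR exceeded PFC by 0.95 in Nestin-Cre mice (edgeR adjusted p = 2.4e-09) and by 0.93 in AAV-Cre mice (edgeR adjusted p = 5.9e-12). Slc29a2 (Entrez 13340; chromosome 19, 5024006 to 5031972, plus strand) was the most even of the 7 genes. Its WT Nestin-Cre means were 15.5 ± 1.22 cpm in PFC, 14.0 ± 1.51 cpm in STR and 17.5 ± 2.79 cpm in SN. It was called in AAV-Cre mice between SN and STR (0.27, adjusted p = 0.00216) and between STR and PFC (-0.18, edgeR adjusted p = 0.0391, but 0.177 with the likelihood ratio test) but not between any regions in Nestin-Cre mice, with or without mouse as a replicate block. The step from SN to PFC groups of Slc29a1 was free of overlap, while every neighbour in the order of Slc29a2 means overlapped.

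HET and HOM mice were compared with WT mice of the same model and region. Over the 12 comparisons of HET or HOM with WT, 0 of 84 tests were called by the edgeR quasi-likelihood F test, and 11 had an unadjusted p under 0.05, as had 251 to 2513 of all genes per comparison. The share of all genes called was 0.25% in Nestin-Cre HOM PFC, 0.0137% in AAV-Cre HOM PFC and 0% in each of the other 10 comparisons. DESeq2 called 1 of the 84 tests, with an unadjusted p under 0.05 in 10 and no adjusted p in 6, and it called 0 to 539 of all genes. The edgeR likelihood ratio test called Adora2a in Nestin-Cre PFC and AAV-Cre SN of both mutant genotypes and in Nestin-Cre SN of HET mice, and called Adora1, Adora2a and Nt5e in Nestin-Cre STR of HET mice. In the same comparisons it called 56 to 1242 of all genes, against 0 to 36 by quasi-likelihood. HET and HOM are compared with the same WT libraries and their values are not independent.

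**Figure D2:**
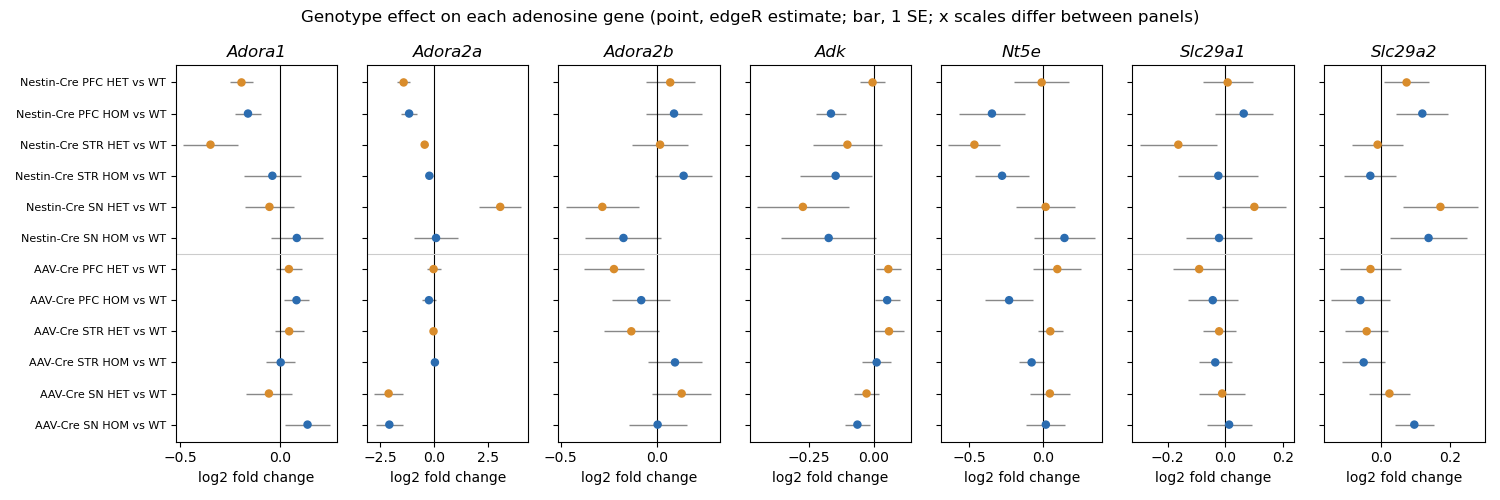
Log2 fold change against WT of each adenosine gene (points, edgeR estimates, HET and HOM coloured apart; bars, 1 SE) in each model and region. Most estimates lie near 0, and the x scale is widest for Adora2a, from -2.11 in AAV-Cre HET SN to 3.09 in Nestin-Cre HET SN.

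Adora2a had the lowest adjusted p of any genotype test, in HET PFC of Nestin-Cre mice. HET libraries ran from 2.17 to 11.0 cpm with a median of 6.25, against 9.79, 17.1 and 29.3 cpm in WT. The HOM libraries were at 9.19 (M4393), 6.75 (M4568), 12.1 (M4569) and 3.06 cpm (M4580). In HET mice 5 of 6 libraries and in HOM mice 3 of 4 lay below the lowest WT library, and the groups overlapped. The log2 fold change was -1.41 in HET (SE 0.31, adjusted p = 0.127) and -1.16 in HOM (SE 0.36, edgeR adjusted p = 0.22). DESeq2 called the HET value (-1.38, adjusted p = 0.029), and its adjusted p over all alternatives but the likelihood ratio test ran from 0.029 to 1. In AAV-Cre mice the Adora2a estimates were -0.02 in HET and -0.23 in HOM PFC, and -0.02 in HET and 0.04 in HOM STR.

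Striatal markers moved the same way in those libraries. The 12-gene striatum list summed to 917 ± 89.6 cpm in HET (n = 6) and 885 ± 96.5 cpm in HOM PFC (n = 4), against 1138 ± 187 cpm in WT (n = 8). The log2 difference was -0.30 in HET (exact permutation p = 0.0143, adjusted over 12 tests 0.0889) and -0.35 in HOM (exact permutation p = 0.0222, adjusted 0.0889), two-sided. Of the 12 genes 11 had lower estimates in HET and 12 in HOM, and the most abundant was Pde1b in WT and HOM and Meis2 in HET. With the log2 sum of the list as a covariate the Adora2a estimates were -0.62 in HET and -0.22 in HOM. The 6 indirect-pathway projection neuron markers had a median log2 fold change of -0.50 in HET and -0.52 in HOM, with 3 and 4 at an unadjusted p under 0.05 by edgeR. The 6 direct-pathway markers had medians of -0.56 and -0.47, with 5 and 3 at such a p. In both lists 0 were called. The 10 oligodendrocyte markers had a median log2 fold change of -0.41 in HET and -0.42 in HOM, with 0 and 1 called by edgeR, and 10 and 9 at an unadjusted p under 0.05, where all genes had 9.72% and 10.1%. The 8 immediate-early genes had medians of 0.78 and 0.85, with 0 called in both by edgeR and 6 and 5 at an unadjusted p under 0.05. The projection neuron, oligodendrocyte and immediate-early lists were not tested as wholes. The part of tissue makeup in the Adora2a values was not tested beyond the covariate.

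In HET STR of the Nestin-Cre model Adora2a, Adora1 and Nt5e had estimates below WT. The HET libraries of Adora2a were at 280 (M4564), 323 (M4578), 347 (M4566), 348 (M4577), 427 (M4628), 507 (M4606) and 595 cpm (M4579), against 435, 512 and 636 cpm in WT (lowest, median and highest). In HET mice 5 of 7 libraries lay below the lowest WT library, while M4606 and M4579 lay within the WT range. The log2 fold changes were -0.43 for Adora2a (SE 0.16, adjusted p = 0.219), -0.35 for Adora1 (SE 0.14, adjusted p = 0.231) and -0.47 for Nt5e (SE 0.18, edgeR adjusted p = 0.222). Without M4579, the highest HET library for Adora2a and Nt5e, both were called, at -0.56 (adjusted p = 0.0628) and -0.62 (edgeR adjusted p = 0.0564). Over all fits with 1 library left out, Adora2a ran from -0.56 to -0.36 and Nt5e from -0.62 to -0.36. Their edgeR adjusted p reached 0.413 and 0.397 in these fits. Adora1 alone was called with all regions in the edgeR fit (-0.35, adjusted p = 0.0861), which called 1082 of all genes there. For Adora2a, Adora1 and Nt5e the estimates in HOM STR were nearer to WT than those in HET STR. In HOM STR 0 of 7 genes had an unadjusted p under 0.05 by edgeR.

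The striatum list followed the same libraries. Its sum was 6489 cpm in M4564, 7702 in M4566, 8347 in M4578, 8487 in M4577, 10414 in M4606, 11023 in M4628 and 12044 in M4579, against 10118 to 13402 cpm in WT STR. The 4 HET mice lowest for Adora2a were the 4 lowest for the list. The difference of the list was -0.40 in HET STR (exact permutation p = 0.0186, adjusted 0.0889) and -0.16 in HOM STR (exact permutation p = 0.121, adjusted 0.364). With the list as a covariate the HET estimates were 0.04 for Adora2a, -0.04 for Adora1 and -0.10 for Nt5e. The 7 choroid plexus markers summed to 19004 cpm in M4566 and to at most 185 cpm in the other HET STR libraries, against at most 290 cpm in WT. The 9 cortical excitatory markers had a median log2 fold change of -1.08 in HET STR, with 0 called by edgeR and 0 at an unadjusted p under 0.05.

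Adora2a in SN rested on single libraries. In HET SN of Nestin-Cre mice the library of M4566 was at 79.6 cpm (1817 counts), and the other 6 lay between 0.438 and 2.28 cpm with a median of 1.89. In the same library the striatum list summed to 2226 cpm, above every other library of the group, the lowest at 390 cpm, and 12 of its 12 genes were above every other HET library. The dopamine neuron list was at 3808 cpm there, within the 3261 to 5065 cpm of the others. In WT SN of AAV-Cre mice M3587 was at 39.3 cpm (804 counts) against 0.908 to 8.88 cpm, with a striatum list of 1430 cpm against 518 to 653 cpm and 12 of 12 genes above the others. Its dopamine neuron list, at 2852 cpm, was below the 3644 to 5799 cpm of the rest. Cortical markers in M3587 were at 334 cpm against 123 to 233 cpm.

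Those libraries set the size of the SN estimates. The HET effect on Adora2a in Nestin-Cre SN was 3.09 (SE 0.97, edgeR adjusted p = 0.518), and it was 0.19 without M4566, 0.17 with DESeq2 and -0.23 with the striatum list as a covariate. In AAV-Cre SN the effect was -2.11 in HET (adjusted p = 0.946) and -2.08 in HOM (edgeR adjusted p = 0.563). Without M3587 these were -0.57 and -0.54, and with the covariate -0.16 and -0.18. With all regions in the edgeR fit the AAV-Cre HET value was called (-2.15, adjusted p = 0.0999), with 22 of all genes.

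Across libraries of 1 model and region, Adora2a followed the striatum list. After removal of group means Pearson's r was 0.780 in Nestin-Cre PFC (n = 18), 0.927 in Nestin-Cre STR (n = 19) and 0.941 in Nestin-Cre SN (n = 19), with Spearman's rho of 0.820, 0.935 and 0.682. In AAV-Cre mice r was 0.969 in PFC (n = 22), 0.852 in STR (n = 21) and 0.902 in SN (n = 22), with rho of 0.927, 0.795 and 0.763. Permutation p over these 6 relations was at most 1.0e-04 for r and 0.002 for rho, with the same values after Benjamini-Hochberg adjustment, and 1e-05 is the smallest that 100000 permutations can give. Without the 2 libraries farthest from the median of the list r was 0.761, 0.881 and 0.505 in Nestin-Cre PFC, STR and SN, and 0.954, 0.833 and 0.727 in AAV-Cre PFC, STR and SN. Libraries share their dissection and their depth, and the relation is a description.

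**Figure D3:**
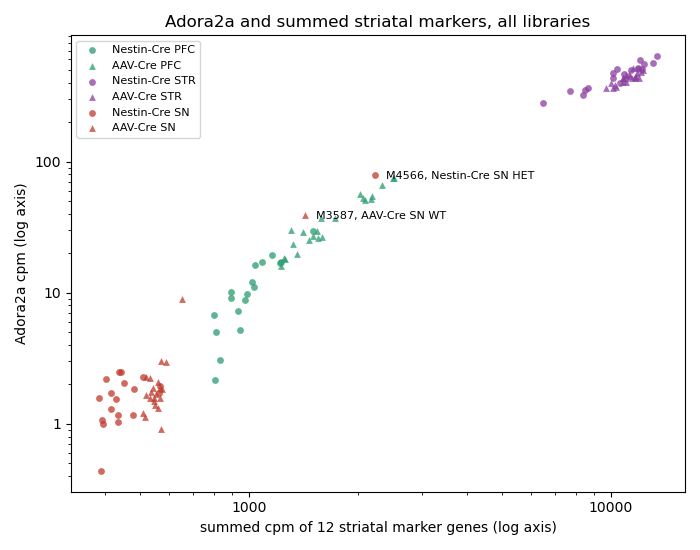
Adora2a in cpm (log axis) against the summed cpm of 12 striatal marker genes (log axis) in all libraries, coloured by region, with circles for Nestin-Cre and triangles for AAV-Cre mice. The named SN libraries, M4566 at 2226 cpm and M3587 at 1430 cpm of striatal markers, lie apart from the other SN libraries on both axes.

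Adora1 in HET PFC of Nestin-Cre mice had libraries between 230 and 260 cpm with a median of 244, and WT libraries between 261 and 305 cpm with a median of 274. All 6 HET libraries were below all 8 WT libraries, as they were for 18 of all 14386 genes tested there (0.125%), and 28 (0.195%) had no overlap in either direction. The difference was small, -0.19 (SE 0.06, edgeR adjusted p = 0.252), and with the striatum list as a covariate it was -0.18. HOM libraries were at 266 (M4393), 264 (M4568), 263 (M4569) and 216 cpm (M4580) and overlapped WT. The HOM estimate was -0.16 (edgeR adjusted p = 0.385), and it ran from -0.19 to -0.09 with 1 library left out. In AAV-Cre PFC the Adora1 means were 264 ± 21.8 cpm in WT, 269 ± 21.8 in HET and 275 ± 21.4 in HOM. Adora2b gave estimates between -0.28 and 0.14 over the 12 comparisons, 0 of them with an unadjusted p under 0.05 by edgeR.

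Among the handling genes Adk alone had groups without overlap. In Nestin-Cre PFC the HOM libraries were at 56.2 (M4393), 54.0 (M4568), 50.7 (M4569) and 57.7 cpm (M4580), and WT ran from 58.4 to 65.1 cpm with a median of 60.0. All 4 HOM libraries were below all 8 WT libraries, as they were for 34 of all 14386 genes tested there (0.236%), while 160 genes (1.11%) had no overlap in either direction. The estimate was -0.17 (SE 0.06, edgeR adjusted p = 0.302). Slc29a1 ranged from -0.16 to 0.10 and Slc29a2 from -0.06 to 0.17 over the 12 comparisons, with 0 tests at an unadjusted p under 0.05 by edgeR for either. Outside HET STR of the Nestin-Cre model, Nt5e likewise had 0 such tests.

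Whether genotype effects differ between regions was tested within each model by edgeR. In Nestin-Cre mice 1 of 7 genes was called for HET SN minus PFC, which was Adora2a (0.013% of all genes called). Its difference of effects was 4.54 (SE 0.89, adjusted p = 0.0451), and it was not called without M4566 (1.63, adjusted p = 0.813) or with mouse as a replicate block and M4575 left out (3.21, edgeR adjusted p = 0.735). The count was 0 of 7 for HET SN minus STR (0.0649%), HET STR minus PFC (0%) and each of the 3 HOM differences (0% each), with unadjusted p under 0.05 for 1, 0, 0, 0 and 0 genes. In AAV-Cre mice it was 0 of 7 for HET SN minus PFC (0.0194%), HET SN minus STR (0.00648%), HET STR minus PFC (0%), HOM SN minus PFC (0.188%), HOM SN minus STR (0.00648%) and HOM STR minus PFC (0%). Unadjusted p in AAV-Cre mice was under 0.05 for 1 gene, Adora2a, in each difference that involves SN and for 0 in the others. Those AAV-Cre values ran from -2.15 to -1.88, and from -0.56 to -0.29 without M3587, and the Nestin-Cre HET SN minus STR value was 3.56, and 0.65 without M4566. Of all genes 14% and 3.14% had an unadjusted p under 0.05 for AAV-Cre HET SN minus PFC and SN minus STR. For AAV-Cre HOM the shares were 14.4% and 2.89%, and for Nestin-Cre HET SN minus STR 11.6%. The edgeR likelihood ratio test called 1 of 7 in 8 of the 11 differences with a count of 0. No share of all genes by that test is given, so these counts cannot be set against a background. In the genotype comparisons the same test called 56 to 1242 of all genes.

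Differences between the models in the genotype effects, AAV-Cre minus Nestin-Cre, were tested in the same way. In PFC 1 of 7 genes was called for HOM (3.54% of all genes), which was Adk, and 0 for HET (0.678%). Each had 2 at an unadjusted p under 0.05, against 16.6% of all genes for HOM and 14.8% for HET. Adk in AAV-Cre HOM PFC ran from 50.9 to 62.5 cpm with a median of 59.4, against 50.5, 57.6 and 62.2 cpm in WT. The groups overlapped in the AAV-Cre mice and not in the Nestin-Cre mice. The difference of Adk effects was 0.23 (SE 0.07, edgeR adjusted p = 0.0978), and it was not called without M4575 (0.21, adjusted p = 0.125) or by the likelihood ratio test (adjusted p = 0.414). In SN 0 of 7 genes were called for HET (0%) and HOM (0%), with 1 and 0 at an unadjusted p under 0.05 (14% and 3.32% of all genes). In STR 0 of 7 were called for HET (0.00673%) and HOM (0.0202%), with 3 and 0 at an unadjusted p under 0.05 (15.5% and 6.67% of all genes). The likelihood ratio test called 1 gene for PFC HET, SN HET and SN HOM, 3 for STR HET and 0 for STR HOM. For PFC HOM only the Adk value of that test is given, above. No share of all genes by that test is given here, so these counts are not read as a result about the 7 genes.

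WT mice of the models, which differ in age, injection and Cre source, were compared as well. In PFC 3 of 7 genes were called (48.1% of all genes), and in each region the share of the 7 lay below that of all genes. AAV-Cre WT exceeded Nestin-Cre WT by 1.23 for Adora2a (adjusted p = 0.00204) and 0.41 for Nt5e (adjusted p = 0.0565), and Adk differed by -0.12 (edgeR adjusted p = 0.0315), a call lost with the likelihood ratio test (adjusted p = 0.222). The striatum list was also higher in AAV-Cre WT PFC, at 1810 against 1138 cpm, and its part was not tested. In STR 2 of 7 were called (60.6%): Adora2a at -0.34 (adjusted p = 0.0271) and Nt5e at -0.39 (edgeR adjusted p = 0.0178). In SN 3 of 7 were called (60.5%): Adk at -0.62 (adjusted p = 2.5e-04), Adora2b at -0.80 (adjusted p = 3.8e-04) and Adora2a at 2.39 (edgeR adjusted p = 0.0206). The SN value of Adora2a was 0.84 without M3587 and was not called (edgeR adjusted p = 0.374).

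Other genes of adenosine metabolism and transport were taken from a list of 33 symbols, of which 32 are in the table and 22 to 26 were tested. Between genotypes 0 of them were called in any of the 12 comparisons by edgeR, with 0 to 7 at an unadjusted p under 0.05. In HET STR of Nestin-Cre mice, where that number was 7 of 23, 17.3% of all genes had such a p and the list median was 0.02 against 0.01. The lowest p belonged to Xdh, a xanthine dehydrogenase gene, in AAV-Cre HOM PFC (-0.49, edgeR adjusted p = 0.17). Alpl (-0.35) and Entpd2 (-0.31) followed in AAV-Cre HET PFC (edgeR adjusted p = 0.34 for both). Both encode enzymes that strip phosphates from extracellular nucleotides. In both AAV-Cre PFC comparisons all 10 astrocyte, 9 endothelial and 8 microglia markers had lower estimates, and 8 of 9 cortical excitatory markers had higher ones. Of the lower markers 6, 3 and 5 in HET and 4, 5 and 5 in HOM had an unadjusted p under 0.05 by edgeR. The share of all genes with such a p was 12.3% in AAV-Cre HET PFC and 14.2% in AAV-Cre HOM PFC. Their part in the named genes was not tested. Of 22 genes of receptor signalling, 5 of them also in the striatum list, 0 were called in any genotype comparison by edgeR, with 0 to 7 at an unadjusted p under 0.05. That number was 7 in Nestin-Cre HET PFC and HET STR, where 9.72% and 17.3% of all genes had such a p, and 6 in HET SN of both models (8.99% in Nestin-Cre and 4.69% in AAV-Cre). The SN libraries with high striatal markers were also highest for the sum of this list, at 6141 cpm (M4566, others up to 5117) and 5729 cpm (M3587, others up to 5235). Ppp1r1b in Nestin-Cre HET PFC (-0.86, adjusted p = 0.126), Ptpn5 in Nestin-Cre HET STR (-0.35, adjusted p = 0.175) and Prkar2b in AAV-Cre HOM SN (-0.21, edgeR adjusted p = 0.538) had the lowest p.

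Between regions the pathway genes were counted by direction beside all genes. In WT Nestin-Cre mice 17 of 26 were higher in SN than in STR and 5 lower at an adjusted p under 0.1 by edgeR, with a list median of 0.54 against 0.01 over all genes, of which 37.8% were called higher and 38.3% lower. In WT AAV-Cre mice 16 of 25 were higher and 3 lower, with a median of 0.33 against 0.03 (39.7% and 35.9% of all genes). Between SN and PFC 18 were higher and 3 lower in Nestin-Cre mice (median 0.47; 37.6% and 41.2% of all genes), and 15 higher and 5 lower in AAV-Cre mice (median 0.29; 37.7% and 36.4% of all genes). Between STR and PFC 8 were higher and 7 lower in Nestin-Cre mice (median -0.06; 34.2% and 34.0% of all genes), and 8 higher and 5 lower in AAV-Cre mice (median 0.06; 33.8% and 31.8% of all genes). Receptor signalling genes were called higher in 8 and lower in 13 of 22 between SN and STR in Nestin-Cre mice, and higher in 8 and lower in 12 in AAV-Cre mice. Between SN and PFC they were higher in 1 and lower in 17, and higher in 5 and lower in 15, in the same order. Between STR and PFC they were higher in 10 and lower in 10, and higher in 11 and lower in 9. No enrichment was tested.

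Genes with the most similar profiles were found by Pearson's r of log2 cpm, with 0.5 cpm added, over the 18 group means. Those nearest to Adora2a were Cd4 (r = 0.998), Ppp1r1b (0.997) and Serpina9 (0.996), and those nearest to Nt5e were Arhgdib (0.990), Ankrd37 (0.989) and Tac1 (0.988). Adora1 was nearest to Gfod1, Cabp1 and Eef1a2 (0.972 to 0.969), Adora2b to Asah1, Agpat5 and Laptm4a (0.981 to 0.977) and Adk to Oma1, Cox7a1 and Pla2g7 (0.984 to 0.983). Slc29a1 was nearest to Sox8, Rerg and Dubr (0.984 to 0.978) and Slc29a2 to Ankrd24, Lig1 and Dgkq (0.976 to 0.973). Group means of 3 regions differ in most genes, so high values are common. Over all libraries with group means removed, the genes nearest to Adk were Atp5c1, Slc25a5 and Prdx3 (0.869 to 0.849). Values were lower for Adora2b, Nt5e and the transporter genes: Lxn, Serp1 and Pla2g16 for Adora2b (0.496 to 0.494), Fgl2, Slc9a2 and Stk17b for Nt5e (0.562 to 0.498), Sirt7, Slc44a2 and Cdk10 for Slc29a1 (0.498 to 0.458) and Dnajb2, Dus1l and Ptpa for Slc29a2 (0.552 to 0.541). Among the 7 genes themselves, Adora2b and Adk had the highest r over group means (0.937), followed by Adora2a and Nt5e (0.867), and with group means removed Adora2b and Adk had 0.339, Adk and Nt5e 0.315 and Adora2a and Nt5e 0.282. All of these share libraries and depth and are descriptions.

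Gdnf, the target of the allele, was counted over its whole exon model, so transcripts of different length are not told apart. In Nestin-Cre STR its means were 5.69 ± 1.15 cpm in WT, 6.20 ± 1.71 cpm in HET and 7.04 ± 1.40 cpm in HOM, and in AAV-Cre STR 6.63 ± 0.718, 7.56 ± 1.03 and 8.72 ± 0.894 cpm. The HOM difference in AAV-Cre STR was 0.40 (unadjusted p = 3.4e-04, edgeR adjusted p = 0.504), with all 7 HOM libraries above the highest of 7 WT libraries, as for 8 of all 14655 genes tested there. In Nestin-Cre STR the HOM difference was 0.28 (edgeR adjusted p = 0.784). The SN libraries that stood out for Adora2a were also the highest of their groups for Gdnf, at 1.66 cpm (M4566) and 1.07 cpm (M3587).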

How the data were processed

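Deposited gene counts of all libraries were used as the authors gave them, 24412 genes in all, with 0 columns of other samples. The submitters' processing notes name bcl2fastq 2.20.0.422, STAR 2.5.2b and featureCounts 1.5.1 with mm10. Libraries were TruSeq stranded poly(A), read as 75 bp single ends.

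Tests used edgeR 4.0.16 (limma 3.58.1) in R 4.3.3: TMM scaling, genes with 1 cpm in at least 3 libraries, trended dispersion, the quasi-likelihood F test and Benjamini-Hochberg adjustment over all genes, with a call at an adjusted p under 0.1. Genotypes were fitted per model and region. DESeq2 1.42.0, the edgeR likelihood ratio test, other filters, scalings and groupings, a striatum covariate and fits without single libraries were run as alternatives. The code was tested on simulated data. Levels and permutations used Python 3.11.15 with numpy 2.4.6, pandas 2.3.3, scipy 1.17.1 and matplotlib 3.10.9. Summed marker lists were compared by exact two-sided permutation, adjusted over 12 tests: the striatum list in PFC and STR and the dopamine neuron list in SN.

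The 7 genes and the lists were chosen with earlier results of these data known. Named genes follow a rule: the 7 genes everywhere; pathway and receptor signalling lists by counts, and by the 3 genes of lowest p where none was called; marker lists by sum, most abundant gene and genes at 0; the 3 most similar genes per gene, among 15675, given over single libraries for 5 of the 7 genes; and Gdnf. Region markers named beside it are the most abundant genes of their lists. Chosen after the data were seen were the covariate in SN, fits without M4566 or M3587 in SN, and list levels without M4575.

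Labels of mice were checked by correlating residuals of 8378 genes. Median r over the pairs of regions ran from 0.169 to 0.329 within a mouse and from -0.0604 to 0.00642 between mice. Of same-mouse pairs 11 of 15, 12 of 18 and 10 of 15 exceeded 0.1 in Nestin-Cre mice (PFC and STR, STR and SN, PFC and SN), and 18 of 21, 16 of 21 and 15 of 22 in AAV-Cre mice. The pairs that involve PFC did not include M4575, so the check does not cover its label conflict.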

Additional observations from a re-analysis of the deposited data

Results flagged for a closer look

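Single libraries stood apart from the rest of their group by Dixon's test in 11 of the 126 groups of a gene, model, region and genotype, and by chance about 1 in 20 groups would. For Adora1 these were 216 cpm in Nestin-Cre HOM PFC (M4580), 231 cpm in Nestin-Cre HOM STR (M4569), 316 cpm in AAV-Cre HET PFC (M3586), 245 cpm in AAV-Cre WT STR (M3649) and 248 cpm in AAV-Cre WT SN (M3587). For Adora2a they were 79.6 cpm in Nestin-Cre HET SN (M4566) and 39.3 cpm in AAV-Cre WT SN (M3587). The others were Adora2b at 8.35 cpm in AAV-Cre WT SN (M3576), Adk at 70.9 cpm in Nestin-Cre HET PFC (M4579), Nt5e at 16.4 cpm in Nestin-Cre HOM SN (M4393) and Slc29a1 at 57.6 cpm in Nestin-Cre HET SN (M4577).

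A pair of genotype effects differed between groups at an adjusted p under 0.1 in the edgeR interaction tests. The HOM effect on Adk in PFC was higher by 0.23 on the log2 scale in AAV-Cre than in Nestin-Cre mice, and by 0.21 without M4575 (adjusted p = 0.125, not called). The HET effect on Adora2a in Nestin-Cre mice was higher by 4.54 in SN than in PFC. It was 1.63 without M4566 (adjusted p = 0.813) and 3.21 with mouse as a replicate block and M4575 left out (adjusted p = 0.735), neither of them called.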

How the results depend on the processing

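Most counts of called genes kept or nearly kept their value under the alternatives, and the likelihood ratio test moved most of those that changed more. Region counts that changed by 1 with mouse as a replicate block, given below, were taken as nearly kept. In genotype comparisons it called 1 gene in AAV-Cre HET SN, AAV-Cre HOM SN, Nestin-Cre HET PFC, Nestin-Cre HOM PFC and Nestin-Cre HET SN, and 3 in Nestin-Cre HET STR, where the quasi-likelihood F test called 0. It called 1 gene for the model difference of HET in PFC, HET in SN and HOM in SN, and 3 for HET in STR. It also called 1 for AAV-Cre HET SN minus PFC, HET SN minus STR, HOM SN minus PFC and HOM SN minus STR, and for Nestin-Cre HET SN minus STR, HET STR minus PFC, HOM SN minus PFC and HOM STR minus PFC. It lost Adk between WT mice of the models in PFC (adjusted p = 0.222), with 2 calls left, and Slc29a2 in AAV-Cre STR minus PFC (adjusted p = 0.177), with 4 left. For differences of effects between models or regions, no share of all genes by this test is given.

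In Nestin-Cre HET PFC the count was 1 with DESeq2, with HET and WT alone fitted and without mouse M4575, and 0 to 1 with 1 library left out. With all regions in the fit it was 1 in AAV-Cre HET SN and 1 in Nestin-Cre HET STR, where it ran from 0 to 2 with 1 library left out. Over the genotype comparisons DESeq2 called 0 to 539 of all genes, and fits of only the genotypes compared called 0 to 39. Nestin-Cre fits without M4575 called 0 to 91 and fits with all regions 0 to 1082, against 0 to 36 in the main fits. The counts of all genes in Nestin-Cre HET PFC alone are not given for these alternatives. The Adk call for the HOM model difference in PFC fell to 0 without M4575. The Adora2a call for Nestin-Cre HET SN minus PFC went to 0 without M4566 and to 0 with mouse as a replicate block and M4575 left out.

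With mouse as a replicate block the region counts were 5 for STR minus PFC, 6 for SN minus STR and 6 for SN minus PFC in Nestin-Cre mice, and 5, 6 and 5 in AAV-Cre mice. With the striatum list as a covariate the HET estimates of Adora2a changed sign, to -0.23 in Nestin-Cre SN and 0.036 in Nestin-Cre STR. The cause was not tested.

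The groups of 4 to 8 libraries and the depth limit which small effects are called. Region, mouse and dissection are joined in each library. The models differ in age, injection and Cre source together. All mice were male. Label conflicts of M4575 were kept as given.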
